A study of Mus musculus with 4 samples.

Results

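The genes below, 10 in number, belong to the acute-phase and calprotectin response and are described across cell classes of mouse intestine and brain. They are Saa1, Saa2, Saa3, Lcn2, S100a8, S100a9, Duox2, Duoxa2, Nos2 and Hp. They were taken as a fixed list of symbols, and all 10 of 10 were found among the 55450 genes of the count tables, of which 36606 had a count in any kept cell. The data are 4 single-cell libraries, 1 per group, made with 10x Genomics 3' chemistry, in which each counted molecule is a UMI (unique molecular identifier). The groups are intestine from untreated mice, intestine after 1 week of a treatment labelled NPs, brain from untreated mice, and brain after 2 months of NPs. All 4 are labelled WT, the labels do not spell out NPs, and each time applies to 1 tissue only, so time and tissue cannot be told apart. The protocol names BALB/c mice of 5 weeks and ICR mice of 6 months for the series without saying which strain gave which tissue, and the number of mice behind a library is not given. The series title speaks of immune cells, yet the intestinal libraries were mostly epithelium and the brain libraries mostly microglia and astrocytes. With 1 library per group no difference between groups has a replicate check, no p-value was computed, and every interval below covers counting error only.

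Acute-phase genes are switched on by cytokines such as IL-6, IL-1 and IL-22 through the transcription factors STAT3, NF-kB and C/EBP. Serum amyloid A proteins are small apolipoproteins that bind lipids and retinol; Saa1 and Saa2 are made in liver and gut epithelium, and Saa3 in gut epithelium, macrophages and fat. S100a8 and S100a9 encode the subunits of calprotectin, a calcium- and zinc-binding complex that fills the cytosol of neutrophils. Lcn2 encodes lipocalin 2, which captures bacterial siderophores, and Hp encodes haptoglobin, which binds free haemoglobin. Duox2 encodes an oxidase of the apical membrane that releases hydrogen peroxide, Duoxa2 the factor that brings it to the membrane, and Nos2 the inducible nitric oxide synthase.

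The 3 listed serum amyloid genes lie close together on chromosome 7 of GRCm38. Saa3 is at 46711998-46715700 and Saa1 at 46740497-46742980 (both minus strand), and Saa2 is at 46751790-46754313 (plus strand). Saa1 and Saa2 are separated by 8809 bases and Saa3 and Saa1 by 24796 bases. Duox2 (chromosome 2, 122279247-122298449, minus) and Duoxa2 (chromosome 2, 122298900-122302885, plus) stand head to head with 450 bases between them, and S100a8 and S100a9 lie 22596 bases apart on chromosome 3. Stretches upstream of the serum amyloid starts are printed because Saa1 and Saa3 moved in opposite directions between the intestinal libraries. They run from base 200 to base 51 before the RefSeq start (GRCm38.p6) at chr7:46743031-46743180 (minus), chr7:46751633-46751782 (plus) and chr7:46715727-46715876 (minus), and capitals mark matches to the NF-kB letters GGGNNNNNCC or the C/EBP letters TTNNGNAA on either strand.
Saa1 promoter stretch: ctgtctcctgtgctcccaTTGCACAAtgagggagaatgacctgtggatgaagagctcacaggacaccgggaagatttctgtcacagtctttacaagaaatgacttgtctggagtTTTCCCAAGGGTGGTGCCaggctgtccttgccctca
Saa2 promoter stretch: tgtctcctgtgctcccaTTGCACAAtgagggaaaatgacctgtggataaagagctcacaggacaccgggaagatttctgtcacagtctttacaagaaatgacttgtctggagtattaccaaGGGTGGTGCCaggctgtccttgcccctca
Saa3 promoter stretch: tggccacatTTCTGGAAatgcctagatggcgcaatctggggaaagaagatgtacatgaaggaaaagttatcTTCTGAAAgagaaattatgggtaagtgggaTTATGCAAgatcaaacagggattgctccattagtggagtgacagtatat
The Saa1 and Saa2 stretches were identical at 145 of 151 aligned positions (96.0%), whereas Saa3 matched Saa1 at 51.2% and Saa2 at 53.4%. An NF-kB match began 78 bases before the start in Saa1 and 79 bases before it in Saa2; the Saa3 stretch held none of these letters. C/EBP matches numbered 2 in Saa1, 1 in Saa2 and 3 in Saa3, and the second match of Saa1 adjoins its NF-kB match, so that the capitals run together. Of 32851 mouse promoter stretches of the same length, 31.6% held the NF-kB letters and 24.7% the C/EBP letters, so a match alone is common. The STAT letters TTCNNNGAA, held by 4.2% of stretches, were in none of the 8 members with a RefSeq promoter. The transcripts of Saa1 and Saa2 were also alike, with 92.4% identity over the last 300 bases that 3' libraries read. How reads fitting both were counted is not given in the sources used here, so values of Saa2 are uncertain.

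Values are given as CPM, the usual normalized unit of UMI counts scaled to the total UMIs of a class, after summing over the cells of the class in a library. A difference is called higher or lower when the ratio of NPs to untreated is at least 2-fold with at least 20 UMIs in the higher library. The libraries held 20368 and 19918 barcodes in the intestine and 11754 and 12226 in the brain (untreated and NPs), with 63889853 to 127772838 UMIs each. After filters 16850, 10635, 11329 and 11946 cells were kept; 46.5% of the barcodes of the NPs intestinal library were above 20% mitochondrial UMIs, against 16.7% in the untreated one. Pairs of libraries shared 35 to 104 barcodes. The 2 intestinal libraries stand apart in the Hox genes, which record position along the gut and other body axes. Posterior genes (Hox groups 10 to 13) gave 77.2% of all Hox UMIs of the untreated library and 9.79% of the NPs library, and the gap held within absorptive cells (86.0% and 5.53%), goblet cells (73.1% and 10.7%) and fibroblasts (69.6% and 33.2%). Region of the gut and treatment therefore cannot be told apart in any intestinal comparison below. The same class was also filled by different clusters. Untreated absorptive cells came almost wholly from clusters 8 and 10 and those of NPs from cluster 23, and goblet cells mostly from cluster 2 untreated and from clusters 4, 21 and 24 with NPs. Cluster 21 (898 NPs cells) was led by cell cycle genes such as Cenpf, Mki67 and Top2a, and cluster 24 (519 NPs cells) by Mmp7 and Plet1. At Leiden resolution 2, 1911 NPs cells were named crypt progenitors and 2313 goblet cells. The NPs goblet class is therefore not made of mature goblet cells alone. Class names stand for likeness to marker genes; the 10 genes were not markers and were left out of the clustering.

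In the intestinal epithelium Saa1 gave the most UMIs of the 10 genes and was lower in the NPs library, while Saa3 was higher. Among 10041 untreated and 9358 NPs epithelial cells, 7 of the 10 genes were measured (at least 20 UMIs in the higher library). Of these, 2 were called higher (Saa3 and Lcn2) and 4 lower (Saa1, Saa2, Duoxa2 and Nos2), and the median log2 ratio of the 7 was -1.82 against 0.31 for all genes. By the same rule 19.1% of 17781 genes were called higher and 9.44% lower. The class pools named and unnamed clusters, and 4322 untreated and 5601 NPs cells lay in named ones. In the named clusters alone 2 members were higher and 4 lower of 7 measured, with a median log2 of -1.62 against 0.56 for all genes. There 4976 of 16476 genes were higher and 1472 lower. S100a8 (2 and 3 UMIs), S100a9 (6 and 11 UMIs) and Hp (0 and 4 UMIs) were nearly undetected in epithelium. Beside these values the median depth of epithelial cells was 2158 UMIs untreated and 7388.5 with NPs, the median mitochondrial share 4.29% and 7.20%, and the summed CPM of 13 neutrophil markers 1349 and 126, with 10 and 12 of the 13 detected. In absorptive cells the same sum was 2984 and 270 CPM, with 7 of the 13 markers detected in each library. Csf3r, Mmp8, Mmp9, Clec4d, Clec4e and Trem1 were at 0 in the untreated ones, and Ly6g was a leading gene of their cluster 8. The part of depth, mitochondrial share and these markers in the differences was not tested.

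Saa1, the main serum amyloid of gut epithelium, gave 127404 UMIs (1506 CPM) in untreated and 12633 UMIs (121 CPM) in NPs epithelium, 12.5-fold lower (95% interval 12.3 to 12.7). Absorptive cells, the enterocytes of the surface, held 88.2% and 89.4% of all Saa1 UMIs of their libraries. In this class Saa1 stood at 3549.8 CPM in 2712 untreated cells and 371 CPM in 1955 NPs cells, 9.58-fold lower (9.39 to 9.76). A Saa1 UMI was found in 92.2% and 53.1% of absorptive cells, whose median depths were alike at 11176.5 and 12416 UMIs. After thinning each cell to 1000 UMIs (110 and 3 shallower cells left out) the shares were 73.6% and 22.1%. The median cell carried 26.0 Saa1 UMIs per 10000 untreated and 0.36 with NPs, and the highest cells 372 and 261, so single cells of the NPs library still reached levels near the untreated top. Goblet cells, which secrete mucus, held 166 CPM and 12.6 CPM of Saa1, 13.2-fold lower, and enteroendocrine cells 339.5 and 77.6 CPM. B, T and NK cells, which should lack Saa1, held 50.4 and 18.0 CPM with a UMI in 16.0% and 3.64% of cells at median depths of 2893 and 2560 UMIs. That is 1.42% and 4.86% of the absorptive level and is read as background. Other classes outside the epithelium held more in the untreated library, with 342 CPM in plasma cells (628 cells) and 533 CPM in mast cells (434 cells), against 13.9 CPM in NPs plasma cells. The untreated goblet level of 166 CPM and the enteroendocrine level of 339.5 CPM do not stand above these, and the NPs goblet level of 12.6 CPM lies below that of the B, T and NK cells. The untreated goblet level does stand above the 50.4 CPM of the B, T and NK cells. Whether the goblet levels are background was not tested, and the goblet ratio is not read as a difference in expression. The absorptive levels stand above every one of these classes.

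Saa2 followed Saa1 at a much lower level. It gave 660 and 113 UMIs in epithelium, or 7.80 and 1.08 CPM, 7.23-fold lower (5.91 to 8.91), and 18.2 and 3.32 CPM in absorptive cells. Saa2 made up 0.515% (0.477 to 0.556) of the summed Saa1 and Saa2 UMIs in untreated epithelium and 0.887% (0.731 to 1.06) in NPs epithelium. Given the identity of the 2 transcripts, a small share of Saa1 reads placed on Saa2 could not be separated from Saa2 itself.

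Saa3 went the other way. Untreated epithelium held 105 Saa3 UMIs (1.24 CPM) and NPs epithelium 2891 UMIs (27.6 CPM), 22.2-fold higher (18.3 to 27.3), with a UMI in 0.548% and 12.1% of cells. Absorptive cells held 85.8% of the Saa3 UMIs of the NPs library while making up 18.4% of its cells. Their level was 1.36 CPM untreated, from 44 UMIs in 23 cells, and 82.3 CPM with NPs, from 2526 UMIs in 828 cells, 60.4-fold higher (44.9 to 83.3). The share of absorptive cells with a Saa3 UMI was 0.848% and 42.4%, or 0.231% and 9.17% after thinning. Within the NPs absorptive cells a Saa3 UMI was found in 56.5% of cells with Saa1 and in 26.4% of cells without it, so Saa3 was found more often in cells with Saa1. Cell depth was not matched in this count. Goblet cells held 0.191 CPM (2 UMIs) and 3.42 CPM (154 UMIs), and enteroendocrine cells 0 and 26 UMIs, at least 7.97-fold higher when 3 counts stand in for 0. B, T and NK cells held 0.269 and 3.79 CPM from 6 and 4 UMIs. With 4 UMIs the NPs goblet level of 3.42 CPM cannot be told from this background. The NPs levels of absorptive and enteroendocrine cells stand above it. NPs fibroblasts held 12 UMIs in 5 cells (11.2 CPM).

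The hydrogen peroxide pair was lower in the NPs absorptive cells and differed by class. Duox2 gave 3346 UMIs (39.5 CPM) and 2708 UMIs (25.9 CPM) in epithelium, a ratio below the 2-fold mark (1.53-fold lower, 1.45 to 1.61). In absorptive cells it stood at 37.2 and 8.53 CPM, 4.36-fold lower (3.81 to 5.00). In goblet cells it stood at 54.3 and 47.1 CPM, 1.15-fold lower (1.05 to 1.27), and goblet cells held 77.4% of the Duox2 UMIs of the NPs library. Enteroendocrine cells held 26.4 and 34.9 CPM. Among the named epithelial classes Duox2 was thus highest in goblet cells of both libraries, although the interval of NPs enteroendocrine cells (24.5 to 48.4 CPM) includes the goblet level. The NPs goblet class includes the cycling cluster 21, whose own level is not given. Of the 3 classes, the absorptive one differed by 2-fold or more. B, T and NK cells held 3.01 and 4.74 CPM, and untreated mast cells 16.9 CPM.

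Duoxa2, the maturation factor, gave 2279 UMIs (26.9 CPM) and 799 UMIs (7.63 CPM) in epithelium, 3.53-fold lower (3.26 to 3.83). It was 5.19-fold lower (4.37 to 6.20) in absorptive cells, from 26.2 to 5.05 CPM, and 2.40-fold lower (2.05 to 2.80) in goblet cells, from 24.9 to 10.4 CPM. Enteroendocrine cells held 17.9 and 17.5 CPM, the former near the 14.4 CPM of untreated mast cells. Among untreated absorptive cells Duoxa2 was detected in 37.7% of cells with Duox2 and 13.2% of cells without it, and among NPs cells in 20.2% and 4.39%. Duoxa2 overlaps Duoxa1 on the opposite strand, and Duoxa1 held 31 and 28 UMIs in the same epithelium.

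Nos2 gave 413 UMIs (4.88 CPM) and 100 UMIs (0.955 CPM), 5.11-fold lower (4.10 to 6.43), and in absorptive cells 6.62 and 0.716 CPM, 9.24-fold lower (5.95 to 15.1). The untreated absorptive UMIs were concentrated, with 63.1% in the top 1% of cells and a UMI in 97 cells. B, T and NK cells held 0.494 and 0.949 CPM. The latter came from 1 UMI, too few to tell whether Nos2 of the NPs epithelium stood above background. Lcn2 gave only 7 and 21 UMIs in epithelium (0.0827 and 0.200 CPM, ratio 2.42, 0.993 to 6.75), an interval that includes no difference, and its ratio turned to lower when cells were weighted equally (log2 -0.78). Endothelial cells, present with 149 cells in the NPs library and not named in the untreated one, held 43 Lcn2 UMIs (83.8 CPM) in 20 cells, 63.2% of the Lcn2 UMIs of that library.

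By class, absorptive cells had 1 gene higher and 5 lower of 6 measured, where 26.0% of 13640 genes were higher and 10.2% lower. Goblet cells had 1 higher and 3 lower of 5 measured, where 14.1% of 14619 genes were higher and 5.64% lower. Whether the goblet levels of Saa1 in this count are background was not tested, and that of Saa3 with NPs cannot be told from background. Epithelial clusters that stayed unnamed, because they had leading genes of other classes or no clear set of markers, came mostly from 1 library each. Untreated cluster 1 (4146 cells) held 992 CPM of Saa1, untreated cluster 9 (1552 cells) 41.8 CPM of Duox2 and 30.7 CPM of Duoxa2, and NPs cluster 19 (3326 cells) 15.3 CPM of Saa1 and 6.33 CPM of Saa3.

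**Figure D1:**
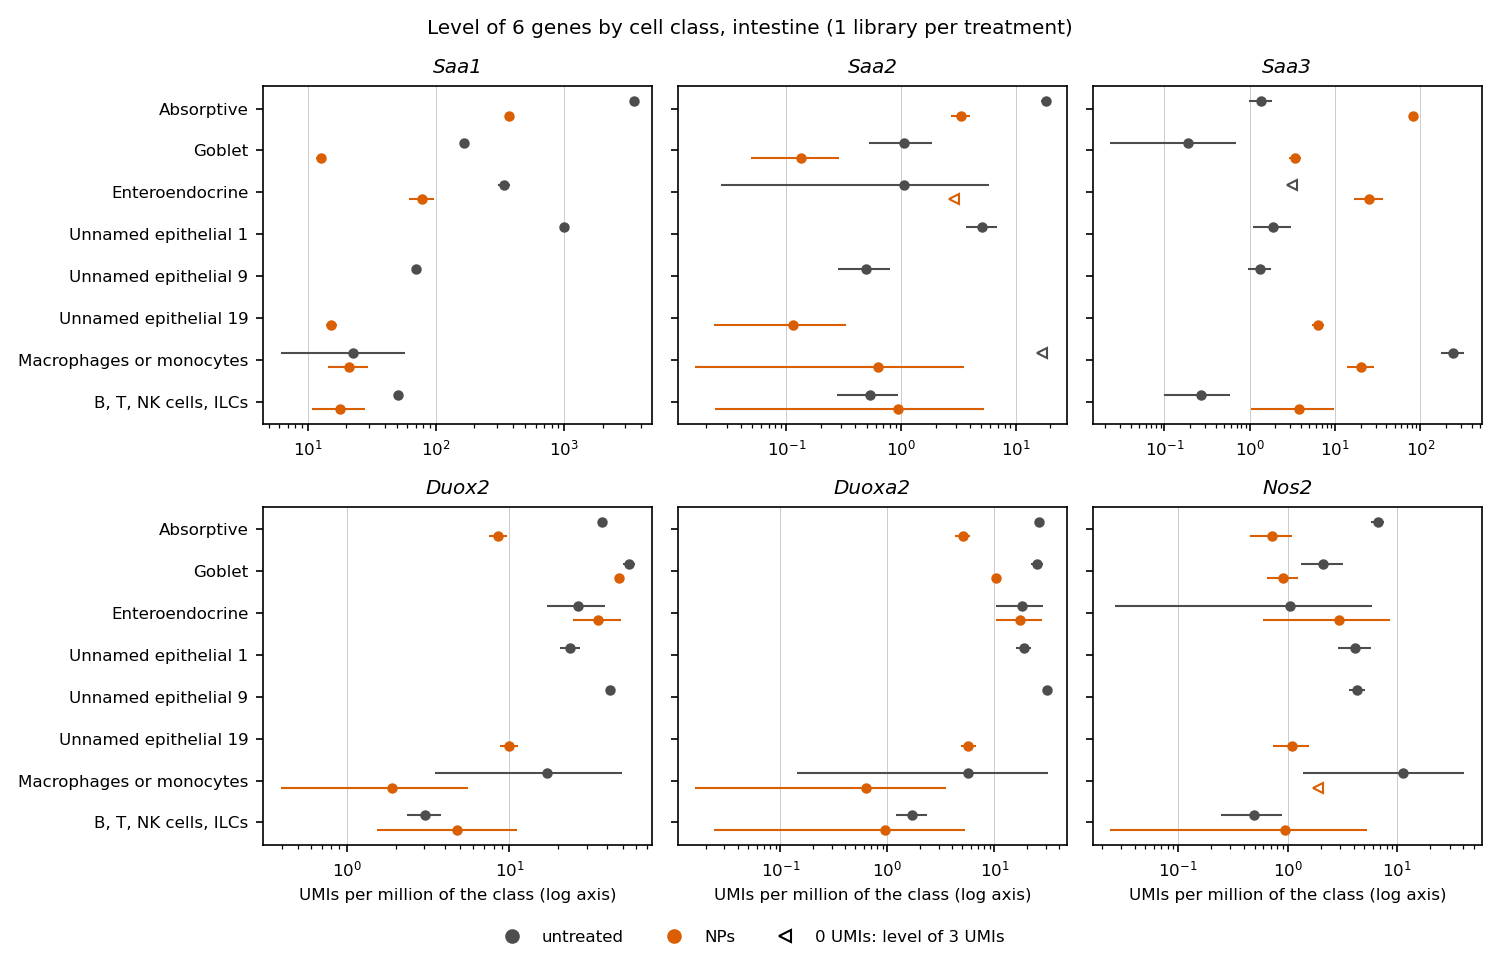
Level of 6 genes by intestinal cell class in CPM of the class on log axes, 1 panel per gene; points are the untreated (grey) and NPs (orange) libraries, bars the 95% Poisson intervals, and open triangles the level of 3 UMIs where none was counted. Classes with under 50 cells in a library are left out there, except macrophages. Saa1 of absorptive cells stands at 3549.8 and 371 CPM while Saa3 stands at 1.36 and 82.3 CPM.

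The genes that act around the 10 were read from lists of cytokines, receptors, transcription factors, oxidant enzymes, scavengers, other acute-phase genes and granule genes. Epithelium here is the pooled class with its unnamed clusters, where 19.1% of all genes were called higher and 9.44% lower. In it other acute-phase genes were lower, with 5 of 6 measured genes lower and none higher (median log2 -1.77 against 0.31 for all genes). Complement C3 stood at 31.2 and 5.83 CPM and complement factor B (Cfb) at 12.8 and 3.75 CPM. Serpina3g, a serine protease inhibitor, stood at 0.851 and 0.191 CPM, and Cp, which encodes the copper carrier ceruloplasmin, at 0.425 and 0.124 CPM. Among the transcription factors and feedback genes Cebpb, which encodes a C/EBP factor, was higher, at 11.7 and 37.8 CPM. Of 12 cytokine receptors 1 was higher, the IL-1 receptor Il1r1 at 2.86 and 11.5 CPM, and 2 were lower, among them the oncostatin M receptor Osmr at 2.30 and 0.305 CPM. Beside the shares over all genes, these few calls are not a result about the receptor list. Of 3 measured cytokines Ifng was lower (7.83 and 1.14 CPM), beside a summed level of T-cell markers of 128 and 4.84 CPM in the same epithelial cells, whose part was not tested.

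Of 14 measured oxidant genes 3 were higher and 3 lower in epithelium (median log2 -0.43), where 19.1% of all genes were higher and 9.44% lower, so the count of higher genes is near the background and is not a result about the list. The NADPH oxidase activator Noxa1 stood at 12.6 and 38.5 CPM and arginase Arg1, which competes with nitric oxide synthases for arginine, at 0.260 and 2.08 CPM. Cybb, the catalytic subunit of the phagocyte oxidase, stood at 7.52 and 0.554 CPM and Ncf1, a cytosolic subunit of it, at 2.28 and 0.496 CPM. Of 6 receptors and scavengers of the listed proteins 2 were higher: Ager, a receptor of calprotectin, at 0.319 and 0.716 CPM, and Slc22a17, a lipocalin 2 receptor, at 0.213 and 0.983 CPM. Of 2 measured granule genes Lyz2 was higher and Ltf lower.

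Neutrophils of the intestine numbered 3 and 5 cells, too few for a comparison between libraries. They carried 11 and 12 of 13 neutrophil markers, with Ly6g at 0 in both. Even so they held 97 and 142 UMIs of S100a8 and 383 and 319 UMIs of S100a9, or 93.3% to 98.0% of all UMIs of these genes in their libraries. S100a8 thus stood at 27778 and 22002 CPM and S100a9 at 109679 and 49427 CPM. Hp gave 5 and 20 UMIs and Lcn2 0 and 3 UMIs in these cells.

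Intestinal macrophages or monocytes numbered 37 and 340 cells, and 2 of the 10 genes were measured in them, both lower with NPs. By the same rule 26.9% of 5024 genes were called higher and 4.2% lower. Saa3, which macrophages also make, gave 43 UMIs in 3 untreated cells (243 CPM) and 32 UMIs in 9 NPs cells (20.3 CPM), a log2 ratio of -3.58 (7.40- to 19.5-fold lower). Hp gave 37 UMIs in 16 untreated cells (209 CPM) and 35 UMIs in 8 NPs cells (22.2 CPM), 9.41-fold lower (5.77 to 15.4). The class is uneven: all of these untreated UMIs lay in its sub-cluster 1 (21 and 20 cells), led by Il1a, F10 and Acod1, and left without a name of its own. Of the 32 NPs UMIs of Saa3, 16 came from 1 cell of sub-cluster 7 (88 NPs cells), whose leading genes Reg4, Retnlb and Muc2 are epithelial. Within sub-cluster 1 Saa3 stood at 449 and 79.6 CPM from 43 and 8 UMIs, and Hp at 386 and 229 CPM from 37 and 23 UMIs, the latter under 2-fold. Sub-clusters that kept the macrophage name held 3 and 177 cells and gave no comparison, and with a limit of 10% mitochondrial UMIs no member was called. Saa1 gave 4 and 33 UMIs, S100a8 5 and 2, Nos2 2 and 0, Lcn2 0 and 1, and S100a9 none, so macrophages showed next to no calprotectin. Of 4 measured cytokines 2 were lower, Il1b at 6314 and 2199 CPM and Il1a at 413 and 25.4 CPM; Il1a was also a leading gene of the sub-cluster.

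In the brain the calprotectin genes were almost wholly a neutrophil signal. Brain neutrophils (74 and 118 cells) carried all 13 neutrophil markers in both libraries and took up 0.318% and 0.794% of all UMIs of kept cells. They held 97.2% and 96.9% of all S100a8 UMIs, 97.2% and 97.0% of S100a9, 87.2% and 95.04% of Lcn2, and 64.4% and 85.8% of Hp. Of 4 measured genes only Lcn2 was called higher and none lower; 8.08% of 2067 genes were called higher and 5.03% lower. Saa3 gave 16 UMIs in 1 untreated cell and none with NPs, Nos2 0 and 10 UMIs, and the other 4 genes no UMI.

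S100a8 gave 17558 UMIs in the untreated and 51291 in the NPs neutrophils, that is 82154 and 104746 CPM, 1.27-fold higher (1.25 to 1.30). S100a9 gave 27979 and 74917 UMIs, that is 130914 and 152995 CPM, 1.17-fold higher (1.15 to 1.18). These intervals exclude no difference by counting alone, yet both ratios are well under 2-fold, and the cells overlapped widely: S100a8 ranged from 0 to 1746 UMIs per 10000 untreated and from 26.8 to 1998 with NPs, with medians of 772 and 1012. The medians of S100a9 were 1271 and 1598 per 10000. S100a9 made up 61.4% and 59.4% of the summed calprotectin UMIs, so both subunits kept nearly the same proportion in the 2 libraries.

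Lcn2 gave 661 UMIs (3093 CPM) and 3697 UMIs (7550.0 CPM), 2.44-fold higher (2.25 to 2.66). A Lcn2 UMI was found in 64.9% (52.9 to 75.6) of untreated and 89.0% (81.9 to 94.0) of NPs neutrophils, at median depths of 2560.5 and 3442 UMIs. The median cell held 10.8 and 23.5 Lcn2 UMIs per 10000, and the highest cells 249 and 365. Haptoglobin is stored in neutrophil granules too, and Hp stood at 3406 and 3441 CPM from 728 and 1685 UMIs, a ratio of 1.01 (0.926 to 1.10), with per-cell medians of 34.4 and 34.5. Lcn2 thus differed between the neutrophils of the libraries while Hp, measured in the same cells, did not reach the mark. The 2 genes had similar UMIs in the untreated cells (661 and 728) but not in the NPs cells (3697 and 1685). The difference between the 2 ratios was not tested.

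**Figure D2:**
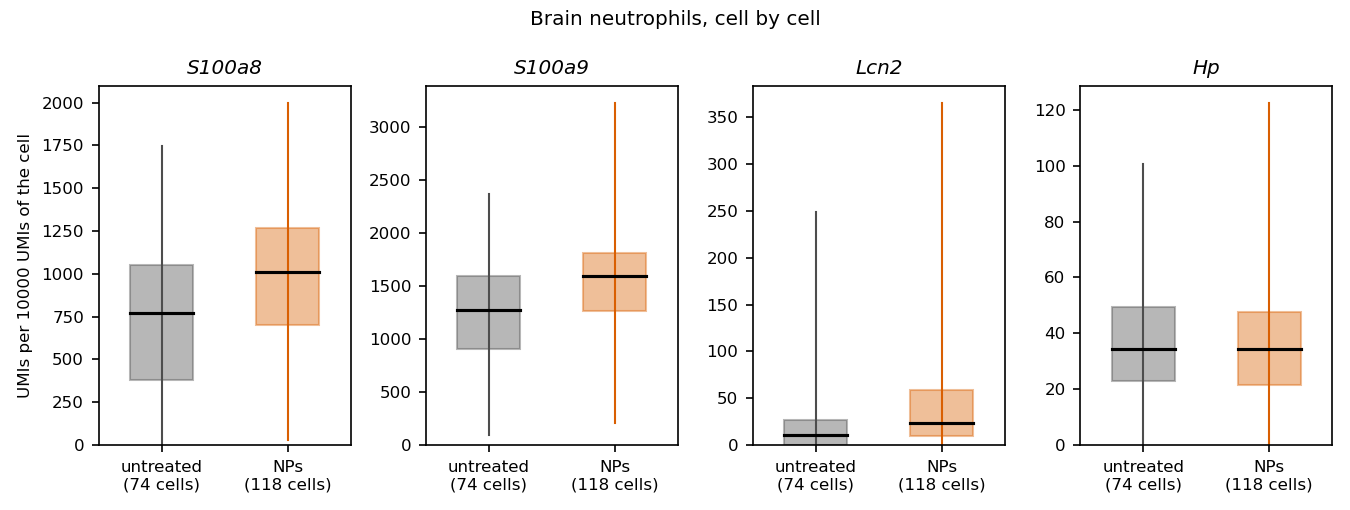
UMIs of 4 genes per 10000 UMIs of the cell in brain neutrophils; boxes run from the first to the third quartile, black lines are medians and thin lines run from the lowest to the highest cell, in 74 untreated (grey) and 118 NPs (orange) cells of 1 library each. The median of Lcn2 is 10.8 and 23.5, and that of Hp 34.4 and 34.5.

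Neutrophil granule genes were higher beside Lcn2, with 4 of 7 measured genes higher, none lower and a median log2 of 1.60 against 0.07 for all genes. Over all 2067 measured genes 8.08% were higher and 5.03% lower. Lactoferrin (Ltf), which binds iron in secondary granules, stood at 449 and 1979 CPM, the cathelicidin Camp at 1750.0 and 6176 CPM, Ngp at 1909 and 5781 CPM, and Chil3 at 60.8 and 590.2 CPM. Camp, Ngp and Ltf are genes of granule formation that neutrophils express before they are fully mature. Cybb was higher (122 and 408 CPM) among 5 oxidant genes, and Il1b (11300 and 5073 CPM) and its receptor part Il1rap were lower. Of 2 other measured acute-phase genes none was called, and Lrg1, which encodes a secreted leucine-rich glycoprotein, stood at 1956 and 2159 CPM. In the same cells the summed CPM of choroid plexus markers was 2714 and 206, that of microglial markers 1872 and 2724, and that of astrocyte markers 678 and 462; their part was not tested.

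Outside neutrophils the brain levels of calprotectin were far lower and, in most classes, much alike. Microglia (5324 and 6557 cells) held 8.65 and 20.3 CPM of S100a8, 14.0 and 31.7 CPM of S100a9, and 0.427 and 1.59 CPM of Lcn2, so that 3 of 5 measured genes were called higher and none lower, where 2.2% of 15553 genes were higher and 3.1% lower. T cells held 6.35 and 18.7 CPM of S100a8, neuroblasts 8.10 and 17.2 CPM, and astrocytes 7.12 and 17.2 CPM. Each of these levels was 0.00774% to 0.0105% of the neutrophil level in the untreated library and 0.0164% to 0.0194% in the NPs library. S100a9 made up 61.9% and 60.9% of the calprotectin UMIs in microglia and 60.5% and 62.0% in astrocytes, near the share in neutrophils. The level was low and common to unlike classes, and whether it is background was not tested. Its step between the libraries stands beside a neutrophil share of all UMIs of 0.318% and 0.794%, whose part was not tested. The 5 larger microglial clusters, 1, 3, 4, 7 and 9, gave 7.42 to 10.3 CPM of S100a8 untreated and 17.1 to 22.2 CPM with NPs, with no cluster standing apart. Saa3 gave 28 and 19 UMIs and Hp 23 and 31 UMIs in microglia, neither called.

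In microglia, of 5 measured acute-phase genes 3 were lower, C3 (1.82 and 0.659 CPM), Serpina3g (1.17 and 0.269 CPM) and Lbp (3.06 and 0.210 CPM), beside a summed level of choroid plexus markers of 2243 and 184 CPM, whose part was not tested. Over all 15553 measured genes 2.2% were higher and 3.1% lower. Of 3 measured granule genes Camp and Ngp were called higher, at 27 UMIs each with NPs. Camp stood at 0.0122% and 0.0131% of its neutrophil level and Ngp at 0.00746% and 0.0140%, shares like those of calprotectin. Whether these levels are background was not tested. Il17a, a T-cell cytokine, was higher among 6 cytokines, from 2 to 35 UMIs, beside summed T-cell markers of 3.13 and 5.75 CPM, whose part was not tested. No receptor, transcription factor, oxidant gene or scavenger of the lists was called by the 2-fold rule.

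Some brain classes held these genes above that common level. Brain endothelial cells (366 and 282) held 75 and 83 Lcn2 UMIs, or 35.6 and 55.3 CPM (ratio 1.55, 1.12 to 2.15), in 14 and 17 cells, and 24 and 16 UMIs of Nos2, which was 92.3% and 57.1% of all brain Nos2 UMIs. Their S100a8 (8.07 and 96.5 CPM) and S100a9 (13.8 and 182 CPM) were called higher, but 87.6% and 89.8% of the NPs UMIs lay in the top 1% of cells, rounded up to whole cells, and with other settings the log2 ratio fell to 0.87 and 0.67. Ependymal cells (274 and 49), which line the ventricles, held 78 and 26 Hp UMIs (31.5 and 46.9 CPM). In the 49 NPs cells, under the limit of 50, 54.9% of 390 S100a8 UMIs lay in 1 cell, to which the top 1% was rounded up. Border-associated macrophages (118 and 66 cells) held 275 and 196 Hp UMIs, 315 and 401 CPM, 1.27-fold higher (1.06 to 1.54). Their 54 untreated Saa3 UMIs came from 2 cells and none was found with NPs, and their 25 NPs Lcn2 UMIs came from 2 cells. Saa1 and Saa2 gave only 18 and 16 UMIs in the untreated brain, of which 13 each lay in unnamed cluster 11 (186 and 54 cells), which carries pericyte and smooth muscle markers; with NPs it gave 3 and 2. Saa2 was thus 50.0% of the summed Saa1 and Saa2 UMIs in that untreated cluster, against 0.515% in untreated gut epithelium. Astrocytes held 3 and 20 Lcn2 UMIs.

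**Figure D3:**
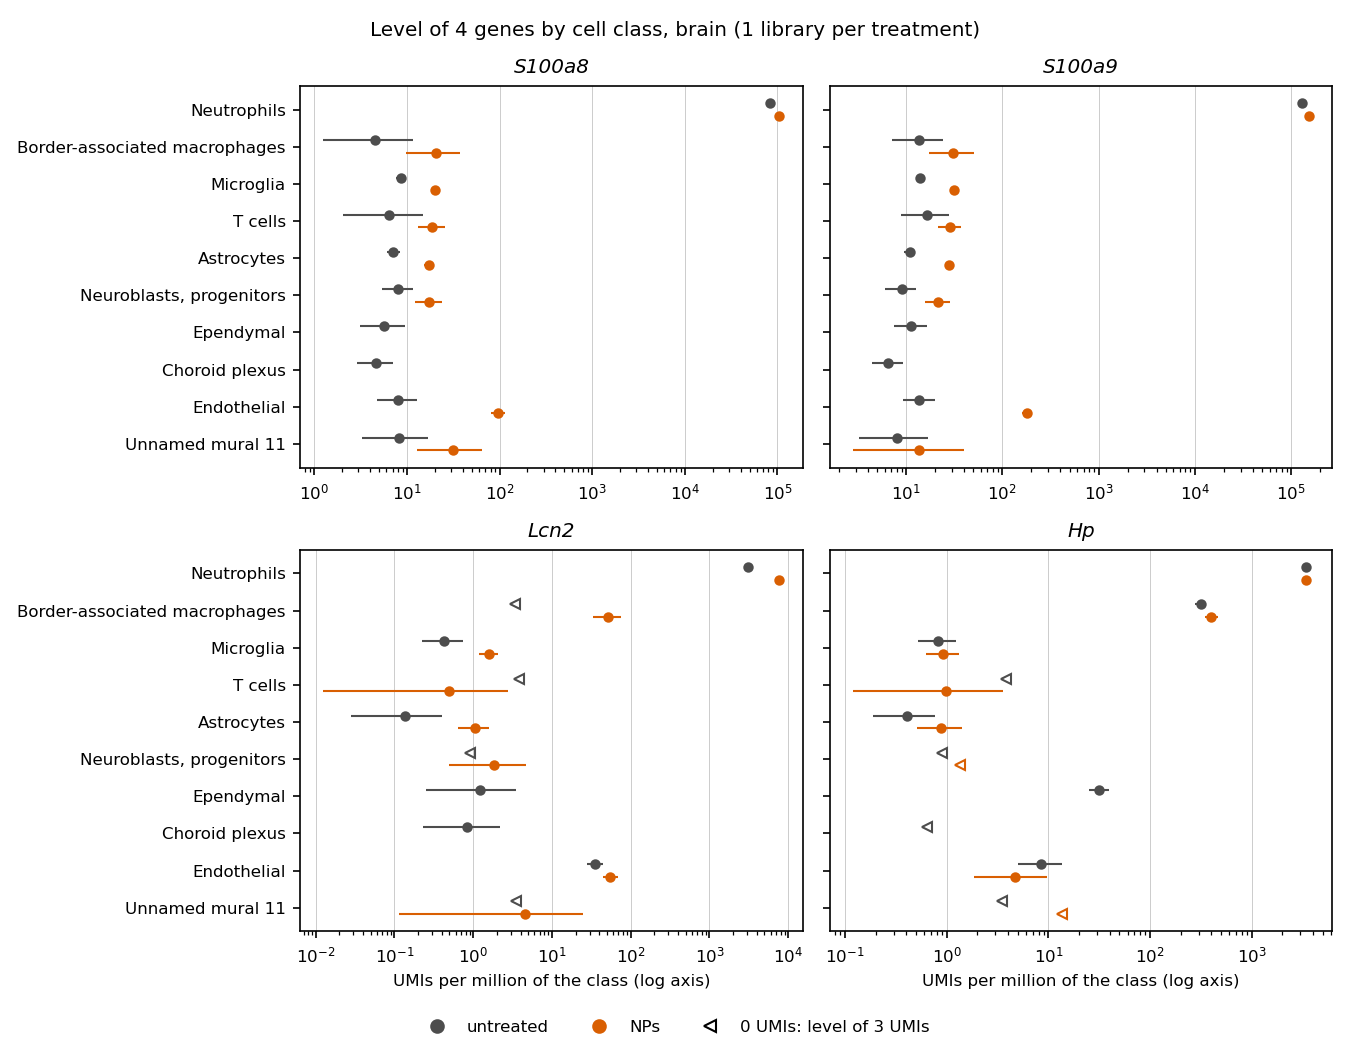
Level of 4 genes by brain cell class in CPM of the class on log axes; points are the untreated (grey) and NPs (orange) libraries, bars 95% Poisson intervals and open triangles the level of 3 UMIs where none was counted. Classes with under 50 cells in a library are left out there. Neutrophils stand at 82154 and 104746 CPM of S100a8. For S100a8 all other classes lie far below, and higher with NPs where both libraries are shown.

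**Figure D4:**
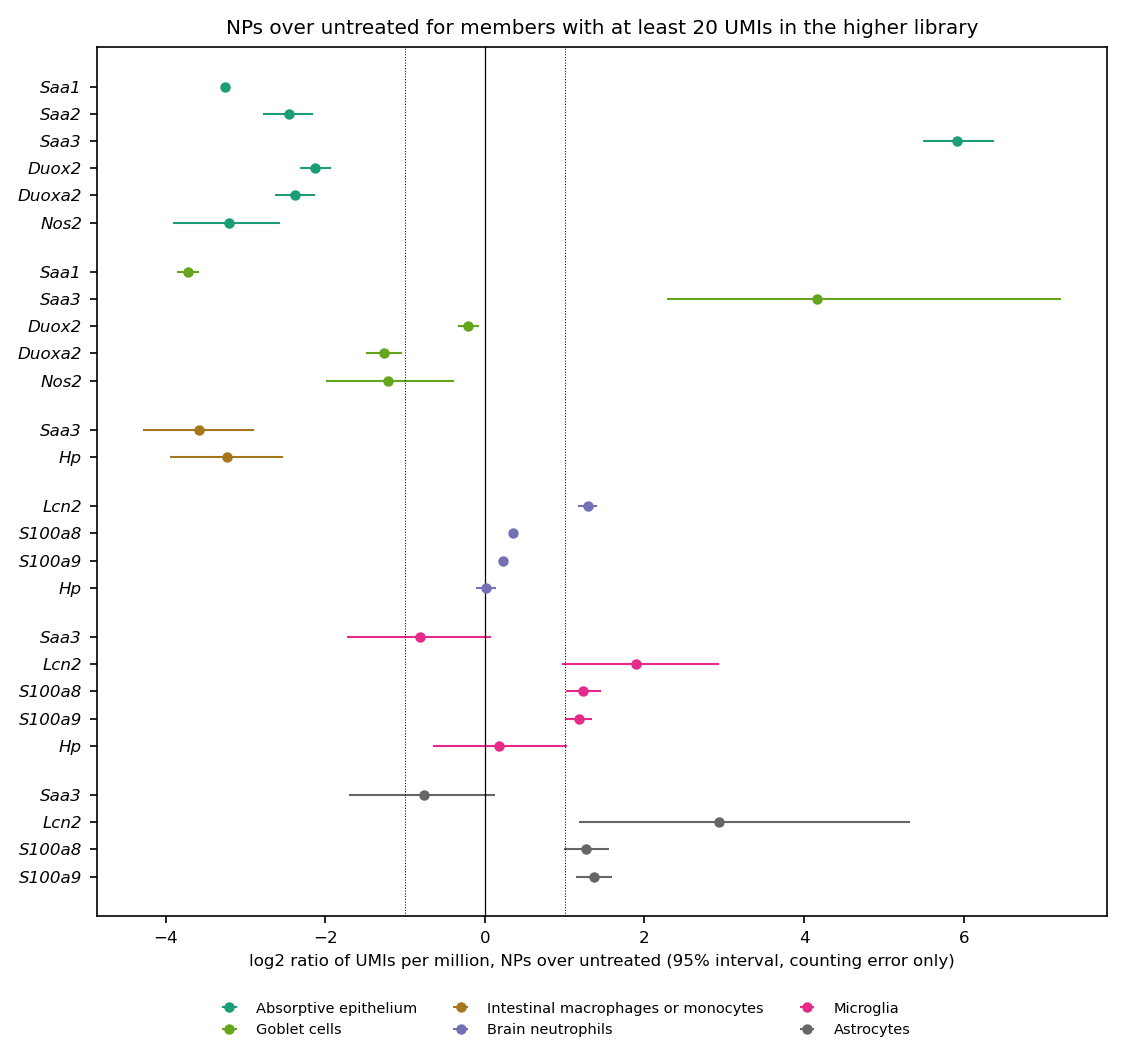
Log2 ratio of NPs over untreated for genes with at least 20 UMIs in the higher library, in 6 cell classes; points are ratios of CPM, bars 95% counting intervals and dotted lines the 2-fold marks. In absorptive cells Saa3 lies at 5.92 and Saa1 at -3.26, and in brain neutrophils Lcn2 lies at 1.29 with Hp at 0.01.

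Likeness was described by the Pearson correlation of log2(CPM + 1) over 21 pairs of class and library in the intestine and 20 in the brain, which share libraries and depth, and no test was made. Saa1 was most like Aqp8 (0.95), Slfn4 (0.93) and Car4 (0.92), the first a water channel and the last a carbonic anhydrase of colonic surface cells. Saa3 was most like Abca12 (0.91), Amn (0.90) and Vnn1 (0.89), and the correlation of Saa1 was 0.83 with Saa2 but -0.12 with Saa3. Duox2 was most like Acy1 (0.93) and Duoxa2 like Thbs4 (0.93), and Nos2 was most like Tgtp1 (0.85). In the brain S100a8 and S100a9 were both most like Retnlg (0.99 each), Lcn2 was most like Lrg1 (0.97), and Hp most like Gda (0.98).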

How the data were processed

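The deposited values are raw UMI counts of 55450 genes per barcode in 4 libraries, aligned and counted by the authors with Cell Ranger 5.0.1 on GRCm38, per the submitters' processing notes. Reads were not aligned again, and all 10 gene IDs matched the GRCm38 annotation.

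A barcode passed with 500 or more UMIs, 200 or more genes and a mitochondrial share not above 20%. Doublets were called with Scrublet; its own threshold did not work in the intestine (0.00516% and 0% marked), so a score of 0.25 was used there, and 0.690%, 0.113%, 2.91% and 1.99% were removed. Both libraries of each tissue entered a single clustering in scanpy 1.11.5 (Python 3.11.15) from 2000 variable genes without the 10 members, with 30 components, 15 neighbours and Leiden resolution 1. Clusters were named from marker genes, with at least 3 markers raised 2-fold and found in 20% of the cells, and intestinal myeloid clusters were clustered again.

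Counts were summed per class and library. Ratios have exact conditional binomial 95% intervals, CPM exact Poisson and shares Clopper-Pearson intervals (scipy 1.17.1); UMIs of 1 library are not replicates. Where a library had 0 UMIs, 3 counts per class and library stood in. Cells were thinned to 1000 UMIs for shares. On simulated counts 4-fold changes in 200 genes were called right in 99.5% (epithelium, 17230 genes), 97.0% (brain neutrophils, 1819 genes) and 99.5% (microglia, 15379 genes). Of the unchanged genes 0.564%, 4.62% and 0.560% were called in these 3 simulations by counting error alone. Named were all 10 members in classes of at least 50 cells, and in neutrophils and, with its number stated, the smaller macrophage class; up to 4 genes of the largest ratio per list; and the most like genes. The members, lists and rules were chosen with earlier results of these data known. Alternatives numbered 13 as planned, and 5 were added after seeing the data. Promoters come from RefSeq. A result on 1 listed gene is not reported here.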

Additional observations from a re-analysis of the deposited data

Results flagged for a closer look

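Saa3 differed in direction between cell classes of the same 2 intestinal libraries. Its log2 ratio of NPs over untreated was 4.48 in epithelium and -3.58 in macrophages or monocytes; the difference was not tested, and the macrophage value rests on 3 untreated and 9 NPs cells with a UMI.

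Barcodes left out for more than 20% mitochondrial UMIs also held members. In the intestine these were 3399 untreated and 9271 NPs barcodes. Saa3 stood at 0.440 CPM untreated and 32.6 CPM with NPs, and S100a9 at 0.660 CPM (3 UMIs) and 3.09 CPM (53 UMIs).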

How the results depend on the processing

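No paired analysis was possible because each group is 1 library and no result comes from a test over replicates. Alternatives were run on the 27 member ratios called in epithelium, absorptive cells, goblet cells, intestinal macrophages, brain neutrophils, microglia, astrocytes and brain endothelial cells. Called ratios of other classes, such as enteroendocrine cells, were not part of this count. The 27 ratios gave 301 values under the alternatives, of which 300 kept the direction and 293 stayed at 2-fold or more. In 18 further cases no value could be had. The exception in direction was Lcn2 in epithelium, whose log2 ratio was -0.776 as a mean over cells. Across alternatives Saa1 in epithelium ranged from -4.09 to -3.26, Saa3 from 4.05 to 5.92, and Lcn2 in brain neutrophils from 1.11 to 1.40.

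Counts of members moved as follows. In epithelium those higher went from 2 to 1 after centring all genes on a median of 0, with at least 100 UMIs, cells thinned to 1000 UMIs, a mean over cells, absorptive cells alone or goblet cells alone. In intestinal macrophages those lower went from 2 to 4 with each library clustered separately, to 1 in sub-cluster 1 alone, and to 0 with a limit of 10% mitochondrial UMIs, at least 100 UMIs, thinned cells or the named sub-clusters alone; with thinned cells, 100 UMIs or the named sub-clusters no member reached the minimum. In brain neutrophils those lower went from 0 to 1 with no minimum of UMIs. In microglia they went from 0 to 1 with a limit of 10% or none on mitochondrial UMIs, at least 1000 UMIs per cell, members kept in the clustering, or no minimum. Sub-cluster 1 had 2 members measured, and 127 of 860 genes were lower there, against 211 of 5024 in the whole macrophage class. The share of all genes called is not given for most alternatives. These counts therefore describe the calls and are not results about the members. The causes were not tested. S100a8, S100a9 and Hp gave at most 11 UMIs each in epithelium, under the minimum of 20 for a call.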
